A study of Mus musculus with 24 samples.

Results

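The RNA-sequencing libraries described here were 4 of *N2ΔMy* Ly6Clo cells and 4 of wt Ly6Chi cells, all from peripheral blood (PB) of mice treated with imiquimod (IMQ). They are 8 of the 24 libraries of the series and were taken by the genotype, subset and treatment in their labels (titles KO Lo+A and WT Hi+A). The comparison asks what sets the Ly6Clo gate of the mutant apart from normal inflammatory Ly6Chi monocytes, the cells from which blood Ly6Clo cells arise. Another 4 libraries of wt Ly6Clo cells and 4 of *N2ΔMy* Ly6Chi cells from IMQ-treated mice are given beside it where a value needs them. All mice were on the C57BL/6 background and 8 to 10 weeks old, and received 50 mg of Aldara, a cream holding 5% IMQ, per day on depilated skin for 4 to 5 days, with cells sorted on day 5. IMQ is an agonist of the endosomal receptor TLR7.

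*N2ΔMy* mice carried floxed *Notch2* and Cre recombinase inserted in *Lyz2*, the lysozyme gene of myeloid cells, with a GFP reporter in *Cx3cr1*, and the controls are labelled wild type and were sorted on GFP as well. Whether the controls carried Cre is not given in the sources used here. The deletion depends on *Lyz2* activity and is partial in blood monocytes. Cells were sorted from GFP+ CD11b+ CD115+ cells without lineage markers, as Ly6Chi CD43- MHC-II- or as Ly6Clo/- MHC-II-. The gate and the genotype differ at once between the groups, so their shares in a difference cannot be told apart in this comparison alone. The labels do not say which libraries came from 1 mouse, and p-values measure the spread between these libraries.

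Ly6Chi monocytes are the short-lived classical monocytes that leave the bone marrow through CCR2, enter inflamed tissue and can become macrophages. In blood, Notch2 signals from vascular niches drive part of them into Ly6Clo patrolling monocytes, which depend on NR4A1, crawl along endothelium through LFA-1 and survive through BCL2. Macrophages that differentiate from monocytes take up dying cells, and make complement C1q and receptors such as MERTK.

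Values are read counts that the authors normalized between libraries and rounded, so they compare libraries for 1 gene and not genes with each other. Each ± is the SE of limma's fit with n = 4 libraries per group, each adjusted p is limma's with Benjamini-Hochberg adjustment over all genes tested, and log2 fold changes are N2ΔMy Ly6Clo over wt Ly6Chi unless another pair is named. A gene was called when the adjusted p was at most 0.05 and the log2 fold change, on log2(value + 1), was at least 0.6 in size. Of the 11230 genes tested, which reached 50 in 1 or more of the 24 libraries, 915 (8.15%) were called higher and 826 (7.36%) lower in *N2ΔMy* Ly6Clo than in wt Ly6Chi cells. The median absolute log2 fold change of the 1741 called genes was 1.11, and 1605 of them had no overlap between the 4 and 4 libraries, against 26.0% of all genes tested. All 1741 had the same sign in both library series, 224 were over 2 log2 units higher and 146 over 2 log2 units lower. The calls came from these same libraries, so the counts without overlap and of equal sign are no independent evidence for them. The replicate number was taken to pair the libraries, which the labels do not state. With it as a block 1009 genes were called higher and 1005 lower, including all of the 1741.

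**Figure D1:**
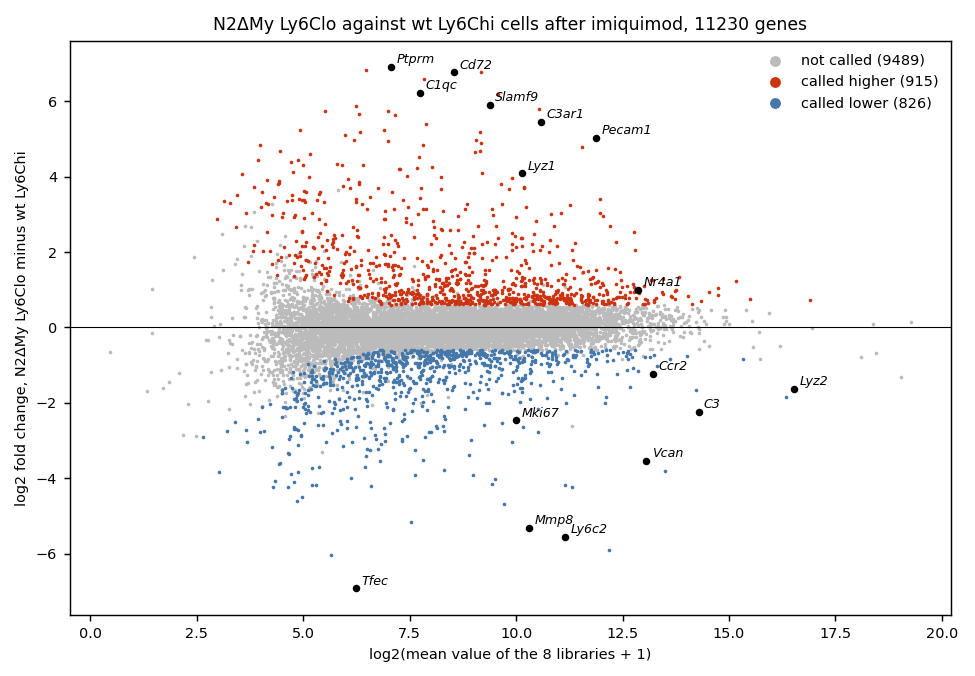
Each of the 11230 genes tested is a point at its mean level over the 8 libraries (log2 scale, x axis) and its log2 fold change in N2ΔMy Ly6Clo over wt Ly6Chi cells (y axis), in red where called higher (915), in blue where called lower (826) and in grey where not called (9489), with some genes named in the text in black. *Ptprm*, *Cd72* and *C1qc* lie over 6 log2 units up, and *Tfec*, *Ly6c2* and *Mmp8* over 5 log2 units down.

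*Notch2* (chr3:98013527-98150361), the targeted gene, was at 10987, 9368, 11137 and 11518 in the *N2ΔMy* Ly6Clo libraries and at 14982, 14001, 13993 and 12656 in the wt Ly6Chi libraries. Every mutant library was below every wt library, but the difference was under 0.6 in size and the gene was not called (log2 fold change -0.37 ± 0.10, adjusted p = 0.0242). Its level was lower still in *N2ΔMy* Ly6Chi cells (7240 to 8311) and highest in wt Ly6Clo cells (16037 to 20005), so the mutant Ly6Clo libraries lay between the mutant and the wt Ly6Chi libraries. *Hes1*, a target of Notch receptors, was at 252, 368, 296 and 324 against 132, 187, 172 and 189 in wt Ly6Chi cells, and was called (log2 fold change 0.86 ± 0.17, adjusted p = 0.00398). All 4 mutant libraries exceeded all 4 wt Ly6Chi libraries, while the wt Ly6Clo libraries reached 592 to 788.

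The genes used in the gates followed the labels for Ly6C. *Ly6c2* (chr15:75108158-75111970), which encodes the Ly6C protein, was at 51, 46, 382 and 58 in *N2ΔMy* Ly6Clo cells and at 2615, 2686, 6233 and 6065 in wt Ly6Chi cells. It fell with no overlap between the groups (log2 fold change -5.55 ± 0.60, adjusted p = 8.1e-05). Its near-identical neighbour *Ly6c1* was at 2 at most in the 8 libraries, and reads that fit both genes can be split between them. *Csf1r*, which encodes CD115, was at 19639 to 30196 in mutant and at 14998 to 17772 in wt Ly6Chi libraries, and *Itgam*, which encodes CD11b, at 5437 to 9014 and 4404 to 5397; neither was called. *Cx3cr1*, the locus of the GFP reporter, was higher in *N2ΔMy* Ly6Clo cells (log2 fold change 0.86 ± 0.12, adjusted p = 5.6e-04), as was *Spn*, which encodes CD43 (log2 fold change 1.33 ± 0.15, adjusted p = 1.1e-04). *Adgre1*, which encodes F4/80, a macrophage antigen followed in the study by flow cytometry, rose as well (log2 fold change 1.56 ± 0.18, adjusted p = 1.3e-04). Of 10 genes of sorting or flow cytometry antigens tested (of 11 listed), 7 were called higher and 1 lower.

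Markers of other blood cells differed in level by cell type. None of 6 T cell, 6 NK cell and 5 basophil markers reached 50 in any library, and their sums were at most 13, 5 and 9 in the 8 libraries. Of 6 B cell markers only *Cd79b* was tested (0.23 ± 0.30, not called), with *Ms4a1* at 3 at most in mutant libraries. Of platelet genes 3 were tested and of erythroid genes 5, and none was called. The summed erythroid values ranged from 0 to 1547 in mutant and from 1 to 753 in wt Ly6Chi libraries. Of the Y-linked genes none exceeded 1 in any of the 8 libraries. Depth, estimated from the steps between low values, was 11173530 to 17018031 reads in the mutant and 12264182 to 15591633 in the wt Ly6Chi libraries, and the same estimate came within 1% of the truth in 63 of 66 simulated libraries and was off by up to 62.6% in the others.

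The genes with the largest rises, among those without overlap, with a mean of at least 100 and not at 0 throughout wt Ly6Chi cells, were *Ptprm*, *Cd5l*, *Jade2*, *Cd72*, *Adrb1*, *C1qc*, *Fcrl5*, *Slamf9*, *Sox5*, *Cd36*, *C1qa* and *Art3*. In 8 of these 12 (*Ptprm*, *Cd5l*, *Cd72*, *Adrb1*, *C1qc*, *Sox5*, *C1qa* and *Art3*) every wt Ly6Chi library was at 12 or less, so the size of their fold changes and their order depend on the pseudocount. *Cd72*, an inhibitory co-receptor of B cells, was at 595, 889, 743 and 705 against 2, 6, 7 and 11 (log2 fold change 6.76 ± 0.38, adjusted p = 1.2e-06). *Slamf9* was at 1637, 1167, 1202 and 1226 against 17, 24, 14 and 31 (log2 fold change 5.91 ± 0.24, adjusted p = 2.2e-07). *Ptprm*, a receptor phosphatase, was at 253, 276, 290 and 243 against 1, 3, 0 and 2 (log2 fold change 6.91 ± 0.45, adjusted p = 2.9e-06). The wt Ly6Clo libraries held these 3 genes as well, at 809 to 1760, 254 to 486 and 162 to 217. *Adrb1*, an adrenergic receptor, *Jade2*, *Fcrl5*, *Sox5* and *Art3* were at 255 to 601, 994 to 1428, 1235 to 1799, 125 to 190 and 105 to 178 in mutant Ly6Clo and at most at 40 in wt Ly6Chi libraries.

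Among the largest falls were those of *Tfec*, *Gm24270*, *Ly6c2*, *Mmp8*, *Rab44*, *RP23-458B6.6*, *Prtn3*, *Cd93*, *S100a8*, *Cd177* and *Plppr3*. *Tfec*, a transcription factor gene, was at 0, 1, 0 and 0 in mutant Ly6Clo and at 219, 153, 101 and 123 in wt Ly6Chi cells, nearly silent in the former. *Cd93*, a receptor of immature myeloid cells, was at 217, 164, 441 and 178 against 3855, 3617, 4291 and 5294 (log2 fold change -4.19 ± 0.27, adjusted p = 2.4e-06), and *Cd177*, an adhesion partner of PECAM1, at 141, 90, 73 and 51 against 1439, 1118, 1541 and 1386 (log2 fold change -4.02 ± 0.26, adjusted p = 2.4e-06). *Gm24270* was erratic among wt Ly6Chi libraries, at 3420, 310, 16304 and 17019, against 31, 249, 48 and 56 in the mutant. *Rab44*, *RP23-458B6.6* and *Plppr3* had log2 fold changes of -5.16 ± 0.35, -4.68 ± 0.29 and -3.99 ± 0.54.

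For the promoters of called genes, RefSeq sequences of build GRCm38.p6 were searched over the 250 bases before each start, on both strands, for 6 motifs of factors of monocytes. These were RBPJ (GTGGGAA), NR4A (AAAGGTCA), PU.1 (GAGGAAGT), C/EBP (TTGCNNAA), the interferon response element (GAAANNGAA) and MAF (TGCTGAC), each counted independently of any overlap with another. Sequences matched 642 of the 915 genes called higher (860 promoters), 597 of the 826 called lower (765 promoters) and 7744 of the 11230 tested (9880 promoters), of 32851 promoters in all. The PU.1 motif stood in 4.19% of the promoters of genes called higher, 2.75% of those called lower, 2.74% of those tested and 2.44% of all. The C/EBP motif stood in 7.56%, 10.7%, 7.60% and 9.56%, and the interferon response element in 7.09%, 9.54%, 6.67% and 7.13%. For RBPJ the shares were 5.12%, 4.58%, 5.19% and 5.42%, for NR4A 1.05%, 1.31%, 0.901% and 1.34%, and for MAF 3.49%, 2.88%, 2.86% and 3.81%, in the same order. These are descriptions of letters and not of bound factors.

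Promoters of 2 C1q genes that moved together, of 2 of the largest rises and of 2 of the largest falls are printed to show where such letters lie, each 5′ to 3′ on the gene's strand and ending at the base before the start, with motif letters in capitals.
C1qb (chr4:136886201-136886450, minus strand): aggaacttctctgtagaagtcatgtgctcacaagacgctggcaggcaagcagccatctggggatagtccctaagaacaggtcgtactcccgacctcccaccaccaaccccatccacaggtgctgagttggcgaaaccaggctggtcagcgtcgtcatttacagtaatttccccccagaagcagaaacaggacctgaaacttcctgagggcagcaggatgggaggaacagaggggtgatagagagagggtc
C1qc (chr4:136892915-136893164, minus strand): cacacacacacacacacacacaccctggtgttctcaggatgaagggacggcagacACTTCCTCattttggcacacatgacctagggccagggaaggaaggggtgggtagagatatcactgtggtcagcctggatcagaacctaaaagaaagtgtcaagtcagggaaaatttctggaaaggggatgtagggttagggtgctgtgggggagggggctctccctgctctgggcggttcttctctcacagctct
Cd72 (chr4:43454627-43454876, minus strand): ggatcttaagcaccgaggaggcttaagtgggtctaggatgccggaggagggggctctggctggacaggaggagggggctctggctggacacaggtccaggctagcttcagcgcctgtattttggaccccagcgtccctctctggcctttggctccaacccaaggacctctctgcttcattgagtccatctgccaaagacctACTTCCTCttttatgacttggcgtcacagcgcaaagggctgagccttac
Slamf9 (chr1:172475110-172475359, plus strand): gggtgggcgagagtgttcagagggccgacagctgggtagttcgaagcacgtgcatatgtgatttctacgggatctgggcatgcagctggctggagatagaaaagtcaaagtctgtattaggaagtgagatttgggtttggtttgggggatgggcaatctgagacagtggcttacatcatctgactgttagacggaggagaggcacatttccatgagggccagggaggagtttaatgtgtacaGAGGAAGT
Mmp8 (chr9:7558179-7558428, plus strand): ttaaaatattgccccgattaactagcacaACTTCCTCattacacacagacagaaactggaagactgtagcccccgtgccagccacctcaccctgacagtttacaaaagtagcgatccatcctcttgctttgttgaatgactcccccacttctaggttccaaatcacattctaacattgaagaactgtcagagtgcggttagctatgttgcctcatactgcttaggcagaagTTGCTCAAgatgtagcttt
Ly6c2 (chr15:75111938-75112187, minus strand): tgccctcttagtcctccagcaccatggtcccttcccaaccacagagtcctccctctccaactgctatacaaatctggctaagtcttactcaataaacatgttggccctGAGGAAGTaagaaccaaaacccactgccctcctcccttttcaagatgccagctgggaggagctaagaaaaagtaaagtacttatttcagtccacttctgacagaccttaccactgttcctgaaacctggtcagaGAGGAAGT
The window of *C1qb* held none of the 6 motifs, and those of *C1qc* and *Cd72* 1 PU.1 motif each, 195 and 49 bases before the start. *Slamf9* held a PU.1 motif that begins 8 bases before the start. *Mmp8* held a PU.1 motif and a C/EBP motif, 221 and 19 bases before the start. *Ly6c2* has 2 starts in RefSeq, and the window of the one printed held 2 PU.1 motifs, 142 and 8 bases before the start.

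Classical monocyte genes fell together. Of 22 listed genes, all tested, 18 were called lower and none higher, and their median log2 fold change was -1.79 against -0.01 over all genes. The same genes had a median of -4.23 in wt Ly6Clo cells against the same wt Ly6Chi libraries, which both comparisons share. Lists here and below were drawn up with earlier results of these data known and are described by counts. Over all genes tested, 8.15% were called higher and 7.36% lower, the shares to set beside each count.

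The size of the fall differed widely between these genes. *Mmp8* (chr9:7558456-7568485), a collagenase, was at 86, 79, 35 and 50 in mutant Ly6Clo and at 2012, 1936, 2204 and 3660 in wt Ly6Chi cells, so that the mutant mean was 2.55% of the wt mean (log2 fold change -5.31 ± 0.29, adjusted p = 1.2e-06). *Vcan*, the proteoglycan versican, was at 1785, 1886, 743 and 1282 against 16964, 14842, 12389 and 18487, or 9.09% (log2 fold change -3.53 ± 0.26, adjusted p = 6.4e-06). The libraries of both groups did not overlap in *Vcan*.

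Other classical genes fell much less. *Ccr2*, the receptor for egress from bone marrow, was at 6279, 6281, 5879 and 4393 in mutant Ly6Clo and at 13680, 13501, 12476 and 13440 in wt Ly6Chi cells, still 43% of the wt Ly6Chi mean (log2 fold change -1.23 ± 0.12, adjusted p = 4.8e-05). *Fn1*, fibronectin, was at 57919, 30795, 26927 and 33841 against 136286, 109248, 137785 and 132747, or 29% (log2 fold change -1.85 ± 0.22, adjusted p = 1.6e-04). In wt Ly6Clo cells the means were 4.44% of wt Ly6Chi for *Ccr2* and 2.64% for *Fn1*, and no library of these groups overlapped. *F13a1*, coagulation factor XIII, was at 7.28% in mutant and 0.827% in wt Ly6Clo cells, and *Chil3*, a chitinase-like protein, at 30.6% and 15.7%. Over the 18 called genes the mutant mean ran from 1.03% of the wt Ly6Chi mean for *Fcnb*, a ficolin, to 46.2% for *Hp*, haptoglobin. In bulk libraries fewer cells of a type and less RNA per cell cannot be told apart. The 4 classical genes not called were *Cebpd*, *Gda*, *Ifitm6* and *Ltb4r1*, with log2 fold changes of -0.58, -0.56, -0.16 and 0.28. All 18 calls were also made with the replicate block.

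Patrolling monocyte genes rose together. Of 22 listed, all tested, 18 were called higher and none lower, with a median log2 fold change of 1.27, and 2.00 in wt Ly6Clo against the shared wt Ly6Chi libraries. Since the study marked Ly6Clo cells by genes of this kind, the list is no independent evidence of its direction.

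*Pecam1* (CD31), an adhesion molecule of endothelium and patrolling cells that stands in the list of adhesion genes, was at 7733, 8805, 6024 and 6655 in *N2ΔMy* Ly6Clo and at 116, 212, 254 and 371 in wt Ly6Chi cells (log2 fold change 5.03 ± 0.28, adjusted p = 1.3e-06). *Cd300e*, an activating receptor, was at 5201, 5914, 5504 and 6247 against 58, 214, 242 and 589 (log2 fold change 4.79 ± 0.51, adjusted p = 7.9e-05). *Itgax* (CD11c) was at 982, 1081, 1915 and 2008 against 60, 92, 114 and 167 (log2 fold change 3.80 ± 0.32, adjusted p = 1.4e-05). Mutant libraries exceeded wt Ly6Chi libraries in each without overlap and by a wide gap. *Cd274*, the inhibitory ligand PD-L1, *Cd9* and *Treml4*, a receptor of Ly6Clo cells, rose too, with log2 fold changes of 2.43 ± 0.13, 2.58 ± 0.18 and 1.83 ± 0.29.

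*Nr4a1*, the nuclear receptor on which patrolling monocytes depend, was at 9659, 7536, 10007 and 12542 in the mutant and at 3858, 5445, 4936 and 5704 in wt Ly6Chi libraries (log2 fold change 0.99 ± 0.17, adjusted p = 0.00146). *Ace*, angiotensin-converting enzyme, was at 14664, 13531, 15648 and 18623 against 3687, 6524, 8370 and 8150 (log2 fold change 1.28 ± 0.23, adjusted p = 0.00226). *Itgal*, the LFA-1 alpha chain, was at 36536, 30962, 27247 and 29437 against 14432, 16756, 15995 and 16987 (log2 fold change 0.95 ± 0.12, adjusted p = 2.3e-04). All 3 genes were called and free of overlap, and all 3 were also called lower than in wt Ly6Clo cells, with log2 fold changes against those of -0.86, -1.19 and -0.73. The other 4 listed genes, *Cebpb*, *Klf2*, *Bcl6* and *Ear2*, were not called. *Ear2*, a ribonuclease, was at 1311, 1138, 2517 and 3635 against 478, 534, 1251 and 1928 (log2 fold change 1.12 ± 0.47, adjusted p = 0.117), and it was called with the replicate block (adjusted p = 7.9e-06).

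**Figure D2:**
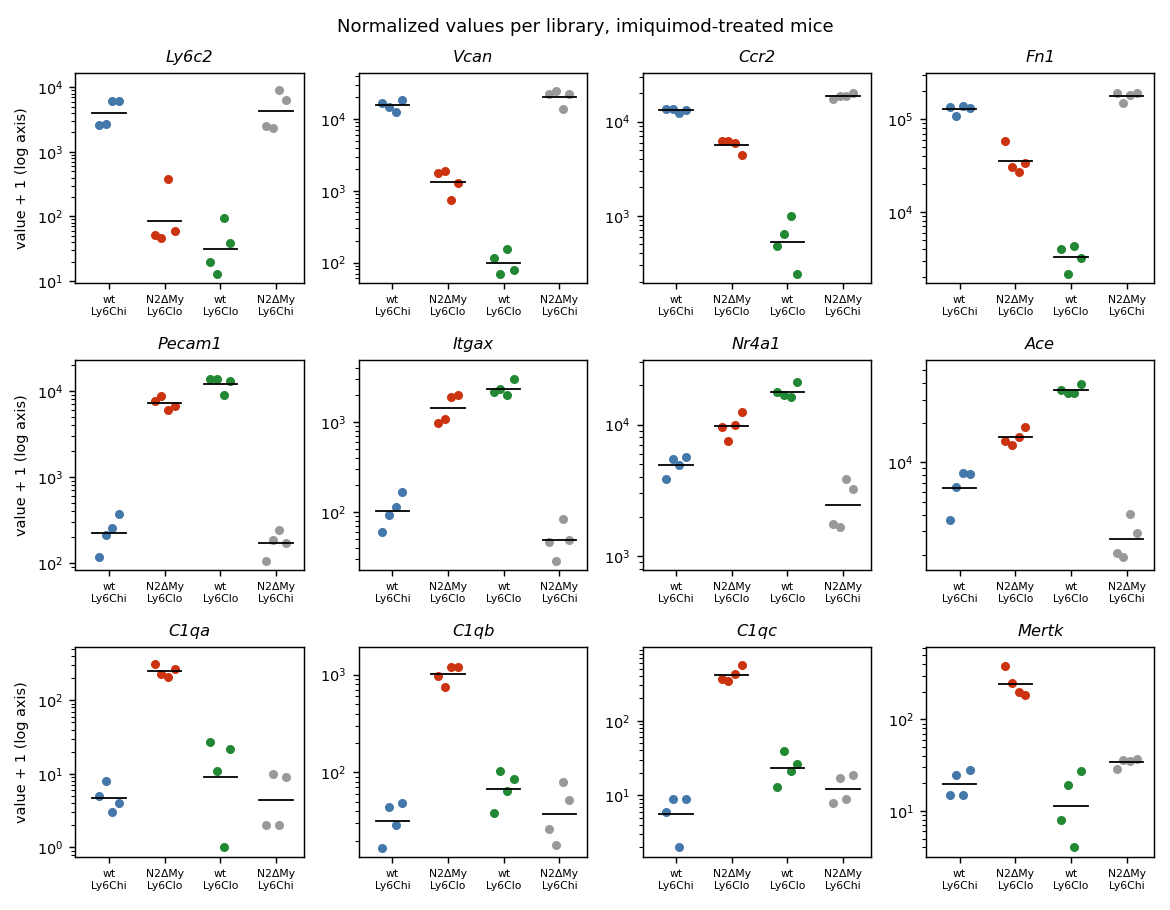
Values + 1 (log axis) of 12 genes in each library of the 4 IMQ-treated groups are points, with the geometric mean as a line. For *Ly6c2*, *Vcan*, *Ccr2* and *Fn1* the N2ΔMy Ly6Clo libraries lie under all wt Ly6Chi libraries, for *Pecam1*, *Itgax*, *Nr4a1* and *Ace* above them, and for *C1qa*, *C1qb*, *C1qc* and *Mertk* above the libraries of all 3 other groups.

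In *N2ΔMy* Ly6Clo over wt Ly6Clo cells, a comparison that shares the mutant libraries, 537 genes (4.78%) were called, and in wt Ly6Clo over wt Ly6Chi cells 2760 (24.6%). By these fits 98 genes (0.873%) were called higher than in wt Ly6Chi and than in wt Ly6Clo cells, and 6 (0.0534%) were called lower than in both. Genes called between the subsets numbered 98 (0.873%) that were higher than in wt Ly6Chi and lower than in wt Ly6Clo cells, and 82 (0.730%) with the reverse order. For the other 1457 called genes the difference from wt Ly6Clo cells was not called, which does not show that it was absent. With the replicate block the counts were 140, 15, 163 and 144. In the second library series alone, with 2 libraries a group, they were 48, 3, 29 and 24. Over all alternatives the count below both ran from 0, without a filter on low values or at a stricter threshold, to 20 in the first series alone. Above both wt subsets there were 43 genes without that filter and 41 at the stricter threshold.

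The genes above both wt subsets included all chains of complement C1q, the opsonin that tags dying cells and immune complexes. *C1qa* (chr4:136895917-136898803) was at 305, 225, 203 and 266 in *N2ΔMy* Ly6Clo and at 4, 7, 2 and 3 in wt Ly6Chi cells (log2 fold change 5.73 ± 0.36, adjusted p = 2.2e-06). *C1qb* (chr4:136880129-136886187) was at 971, 742, 1187 and 1193 against 16, 43, 28 and 48 (log2 fold change 4.97 ± 0.31, adjusted p = 2.2e-06). *C1qc* (chr4:136889804-136893065) was at 361, 338, 428 and 568 against 5, 8, 1 and 8 (log2 fold change 6.22 ± 0.46, adjusted p = 6.7e-06). The 3 chains are encoded side by side on chromosome 4 and form 1 protein. In wt Ly6Clo cells they ranged from 0 to 26, 37 to 102 and 12 to 38, and against those cells the log2 fold changes were 4.78 (adjusted p = 0.00812), 3.88 (adjusted p = 7.1e-05) and 4.18 (adjusted p = 7.7e-05). No library of another IMQ-treated group reached the lowest *N2ΔMy* Ly6Clo library for any of the 3.

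Other genes above both wt subsets encode receptors and proteins of macrophages. *C3ar1*, the receptor for complement C3a, was at 3628, 3742, 2132 and 2535 against 52, 80, 62 and 73 in wt Ly6Chi cells (log2 fold change 5.45 ± 0.20, adjusted p = 2.2e-07). *Mertk*, a kinase receptor for apoptotic cells, was at 376, 245, 197 and 184 against 14, 24, 14 and 27 (log2 fold change 3.60 ± 0.31, adjusted p = 1.7e-05). *Cd5l*, a secreted protein of macrophages, was at 149, 120, 197 and 229 against 0, 0, 0 and 4. Mutant and wt Ly6Chi libraries did not overlap in *C3ar1* and *Mertk*.

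*Lpl*, lipoprotein lipase, was at 2966, 2502, 2269 and 2416 in mutant Ly6Clo and at 388, 656, 774 and 502 in wt Ly6Chi cells (log2 fold change 2.17 ± 0.19, adjusted p = 1.9e-05), and at 140, 191, 248 and 207 in wt Ly6Clo cells. It was lower in wt Ly6Clo than in wt Ly6Chi cells (log2 fold change -1.54) and highest in the mutant Ly6Clo libraries. *Maf*, a macrophage transcription factor, had the same order at 2991, 2972, 3426 and 3137 in mutant Ly6Clo, 703, 915, 1321 and 947 in wt Ly6Chi and 419, 491, 727 and 555 in wt Ly6Clo cells, and its call over wt Ly6Chi cells had a log2 fold change 1.72 ± 0.16, adjusted p = 3.0e-05. *Ltc4s*, leukotriene C4 synthase, *Dok2*, an adaptor that restrains kinase signalling, and *Psd3* had log2 fold changes of 5.23 ± 0.76, 2.99 ± 0.21 and 2.67 ± 0.37 over wt Ly6Chi and 3.86, 2.94 and 3.74 over wt Ly6Clo cells. Other genes called above both, named after their values were seen, were the co-stimulatory ligand *Cd80* (1.20 ± 0.25), the surface molecule *Cd83* (4.00 ± 0.51), *Alox5*, the first enzyme of leukotriene synthesis (1.97 ± 0.24), and *S1pr1*, a receptor for sphingosine 1-phosphate (2.46 ± 0.38).

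*Lyz1* needs a separate account because of its place. It lies beside *Lyz2*, where Cre is inserted, and was at 2512, 1398, 2210 and 2354 in *N2ΔMy* Ly6Clo and at 84, 93, 175 and 152 in wt Ly6Chi cells (log2 fold change 4.09 ± 0.26, adjusted p = 2.2e-06). It was also higher in *N2ΔMy* Ly6Chi than in wt Ly6Chi cells (659, 664, 1496 and 1582, log2 fold change 3.06, adjusted p = 0.0241), a comparison in which only *C3ar1*, *Lyz1* and *Notch2* were called (0.0267% of genes). *Lyz2* was at 54580, 45309, 38976 and 43209 against 114186, 118596, 159115 and 179470 (log2 fold change -1.63 ± 0.19, adjusted p = 1.1e-04), and its log2 fold change in wt Ly6Clo over wt Ly6Chi cells was -1.99. The 2 lysozyme genes are close copies and reads can be split between them. Within 5 Mb of the start of *Lyz2*, 7 of 38 tested genes (18.4%) were called, within 5 Mb of *Notch2* 20 of 102 (19.6%) and within 5 Mb of *Cx3cr1* 11 of 55 (20.0%), against 15.5% of all genes.

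The 6 genes below both wt subsets showed smaller differences. *Bmx*, a cytoplasmic tyrosine kinase, was at 274, 312, 163 and 281 against 531, 562, 464 and 639 in wt Ly6Chi cells (log2 fold change -1.12 ± 0.20, adjusted p = 0.00205) and at 403 to 534 in wt Ly6Clo cells. *Gsr*, glutathione reductase, was at 5813, 5246, 3106 and 4606 against 11310, 10726, 7852 and 11104 (log2 fold change -1.15 ± 0.19, adjusted p = 0.00135) and at 6691 to 9182 in wt Ly6Clo cells. For both, the highest mutant library was below the lowest library of either wt subset. *Prr5l*, *Sorl1* and the unnamed transcript *RP23-293K21.2* had log2 fold changes of -0.86 ± 0.21, -0.78 ± 0.14 and -0.96 ± 0.29 against wt Ly6Chi cells, and the mutant and wt Ly6Chi libraries of the last one overlapped (78 to 164 and 143 to 289). The call of *RP23-293K21.2* was lost without mutant Ly6Clo 1, 2 or 3 or wt Ly6Chi 1, 2 or 3 (adjusted p up to 0.104).

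Of 23 tissue macrophage genes tested (of 29 listed), 13 were called higher and 3 lower, with a median log2 fold change of 1.09, and -0.24 in wt Ly6Clo over wt Ly6Chi cells. Beside C1q, *Mertk*, *Maf* and *Cd5l*, *Stab1*, a scavenger receptor, was at 187, 164, 176 and 168 against 105, 101, 60 and 67 (log2 fold change 1.09 ± 0.22, adjusted p = 0.00387), and *Apoe*, the lipid carrier, at 13409, 6583, 10288 and 9033 against 4180, 3190, 5859 and 8323 (log2 fold change 0.91 ± 0.28, adjusted p = 0.039). *Trem2* and *Gpnmb*, genes of lipid-laden macrophages, and *Axl*, a relative of *Mertk*, were the 3 called lower, at log2 fold changes of -3.23 ± 0.40, -3.03 ± 0.41 and -1.05 ± 0.34. The library groups of *Axl* overlapped (79 to 230 and 214 to 409). Without mutant Ly6Clo 1, 3 or 4 or wt Ly6Chi 1, 2 or 3, *Apoe* was no longer called (adjusted p up to 0.106). Leaving out 1 library at a time ended the call of *Axl* without mutant Ly6Clo 1, 2 or 4 or wt Ly6Chi 1, 2, 3 or 4 (adjusted p up to 0.124). The 6 listed genes that reached 50 in no library were *Timd4* and *Vsig4*, at 0 in all 8 libraries, and *Gas6*, *Lyve1*, *Slc40a1* and *Folr2*, with highest mutant libraries at 0, 3, 15 and 34. Other markers of resident macrophages on the list were detected, and *Spic* and *Cd5l* were called higher, with the highest mutant library at 172 and 229 and the highest wt Ly6Chi library at 23 and 4. *Cd5l* was above both wt subsets. *Spic* was called lower than in wt Ly6Clo cells, with a mean of 136.5 against 425.2 there (log2 fold change -1.58, adjusted p = 0.00552). *Cd163*, *Mrc1* and *Siglec1* were not called, with the highest mutant library at 103, 150 and 163 and the highest wt Ly6Chi library at 21, 82 and 264.

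**Figure D3:**
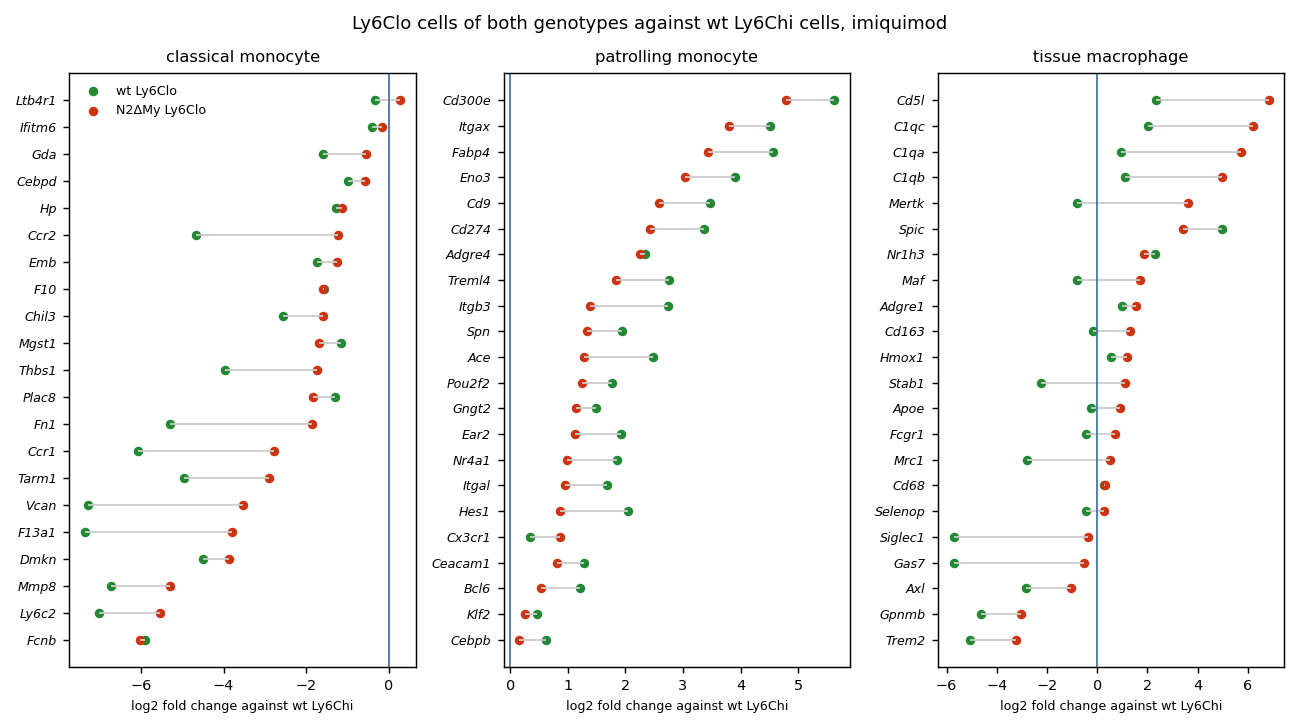
For tested genes of 3 lists, a few left out, the log2 fold change over wt Ly6Chi cells (blue line at 0, x axis) is shown for N2ΔMy Ly6Clo cells in red and wt Ly6Clo cells in green, joined by a grey line. *Ccr2*, *Fn1* and *Vcan* lie nearer to 0 in the mutant, and *C1qa*, *C1qb*, *C1qc*, *Mertk* and *Cd5l* lie farther up in the mutant.

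Among complement genes the direction differed by role. Of 14 tested (of 20 listed), 7 were called higher and 4 lower. *C3*, the central component, was at 8946, 7909, 7091 and 4690 in mutant Ly6Clo and at 31113, 30839, 34281 and 34837 in wt Ly6Chi cells, 21.8% of the wt mean (log2 fold change -2.23 ± 0.18, adjusted p = 9.9e-06). *C1ra*, a C1 protease (log2 fold change -4.22 ± 0.74), and *C5ar2*, a second C5a receptor (-0.78 ± 0.23), fell as well. *Cfp*, properdin, which stabilizes the C3 convertase, *C4b* and *C5ar1*, the receptor for C5a, were higher at 1.1 ± 0.15, 0.94 ± 0.21 and 0.76 ± 0.23. With the 3 C1q chains and *C3ar1*, these were the 7 that rose, and 6 of the 7 were above both wt subsets. The call of *C5ar1* was lost without mutant Ly6Clo 1, 2 or 4 or wt Ly6Chi 1, 2 or 3 (adjusted p up to 0.0945). Without mutant Ly6Clo 4 or wt Ly6Chi 2, 3 or 4, *C5ar2* was no longer called (adjusted p up to 0.0827).

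For uptake of apoptotic cells, 7 of 17 tested genes (of 22 listed) were called higher and 2 lower. *Cd36* (chr5:17781690-17888801), a scavenger receptor for oxidized lipid and dying cells, was at 3980, 2934, 1969 and 2757 in mutant Ly6Clo and at 28, 41, 84 and 65 in wt Ly6Chi cells (log2 fold change 5.79 ± 0.31, adjusted p = 1.2e-06), and at 698, 761, 424 and 1761 in wt Ly6Clo cells. The lowest mutant library was above the highest library of each other group. The integrin chains *Itgb3*, *Itgav* and *Itgb5* and the engulfment gene *Elmo1* rose, with log2 fold changes of 1.38 ± 0.15, 0.83 ± 0.14, 0.73 ± 0.13 and 0.92 ± 0.10. All of these were also called higher in wt Ly6Clo than in wt Ly6Chi cells, at 2.74, 1.04, 0.83 and 1.23. Against wt Ly6Clo cells *Itgb3* was called lower in the mutant (-1.36), and the others were not called. *Mfge8*, which bridges dying cells to integrins, fell (-1.20 ± 0.29). *Lrp1*, an engulfment receptor, was at 41918 to 62876 in mutant and 50898 to 59295 in wt Ly6Chi libraries, with a 95% interval of its log2 fold change of -0.44 to 0.21.

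Lipid genes included 10 called higher and 2 lower of 24 tested. *Pparg*, the lipid-sensing nuclear receptor, was at 1645, 1600, 1597 and 1918 against 76, 117, 163 and 201 (log2 fold change 3.68 ± 0.25, adjusted p = 3.7e-06), and *Pltp*, phospholipid transfer protein, at 4937, 4085, 4239 and 4287 against 226, 460, 604 and 706 (log2 fold change 3.25 ± 0.28, adjusted p = 1.8e-05). The cholesterol exporters *Abca1* and *Abcg1* and their regulator *Nr1h3* rose, with log2 fold changes of 1.31 ± 0.25, 1.14 ± 0.16 and 1.88 ± 0.20. These genes, *Pparg* and *Pltp* were also called higher in wt Ly6Clo than in wt Ly6Chi cells, at 0.75, 1.08, 2.32, 4.23 and 2.58. Of these, only *Pltp* was called higher in the mutant than in wt Ly6Clo cells (0.67). *Msr1*, a scavenger receptor, fell (-1.49 ± 0.20), and *Fabp5* fell (-1.27 ± 0.20) while its relative *Fabp4* rose (3.44 ± 0.40). Against wt Ly6Clo cells *Fabp4* was called lower in the mutant (-1.14). The cholesterol synthesis genes *Hmgcs1*, *Sqle*, *Fdft1* and *Lss* were not called. Of 18 iron and heme genes tested, 7 were called higher and none lower, and with the replicate block *Trf*, transferrin, was called lower as well (log2 fold change -1.53 ± 0.66, adjusted p = 0.128, and 0.00314 with the block). Those that rose included *Spic*, a transcription factor of iron-recycling macrophages (3.41 ± 0.38), *Blvrb*, biliverdin reductase (1.97 ± 0.16), *Tfrc*, the transferrin receptor (1.64 ± 0.32), and *Hmox1*, heme oxygenase (1.17 ± 0.25). *Spic*, *Blvrb* and *Tfrc* were also called higher in wt Ly6Clo than in wt Ly6Chi cells, at 4.99, 1.76 and 1.33, and *Hmox1* was not (0.53). Against wt Ly6Clo cells *Spic* was called lower in the mutant (-1.58). Of 24 lysosomal genes, 4 were called higher, led by *Lgmn*, the protease legumain (1.46 ± 0.19), and 2 lower, *Npc2* (-1.16 ± 0.11) and *Psap* (-0.83 ± 0.16). Together these were 25% of the lysosomal genes tested, against 15.5% of all genes.

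Of 10 MHC class II genes tested (of 11 listed), 5 were called higher and none lower, and 5 were not called, with a median log2 fold change of 1.21. *H2-Eb1* was at 415, 533, 5081 and 2778 in *N2ΔMy* Ly6Clo and at 95, 64, 265 and 62 in wt Ly6Chi cells (log2 fold change 3.72 ± 0.75, adjusted p = 0.00465). *H2-Aa* was at 517, 642, 6134 and 3083 against 208, 190, 406 and 149 (log2 fold change 2.83 ± 0.69, adjusted p = 0.0123), and *H2-Ab1* at 779, 969, 8158 and 3913 against 306, 351, 571 and 230 (log2 fold change 2.68 ± 0.64, adjusted p = 0.0111). All mutant libraries were above all wt Ly6Chi libraries in these 3 genes, with libraries 3 and 4 of the mutant several times above libraries 1 and 2, although both gates excluded cells with MHC-II on the surface. Without a filter on low values, which puts more genes under test, the calls of these 3 genes were lost. In the first library series (libraries 1 and 2) the log2 fold changes of *H2-Eb1*, *H2-Aa* and *H2-Ab1* were 2.58, 1.53 and 1.40, and in the second (libraries 3 and 4) 4.86, 4.14 and 3.96. *Cd74*, the invariant chain, and *H2-Ob* were also called higher (1.47 ± 0.44 and 1.84 ± 0.60), while *Ciita*, the regulator of these genes, was not (log2 fold change 0.83, adjusted p = 0.347). The peptide-loading genes *H2-DMa*, *H2-DMb1* and *H2-DMb2* and their modulator *H2-Oa* were not called either, with log2 fold changes of -0.33 ± 0.37, 0.13 ± 0.35, 0.38 ± 0.31 and 0.95 ± 0.87. *H2-DMb1* was called in opposite directions in the 2 series fitted alone, at -0.70 in the first (limma adjusted p = 0.0257) and 0.95 in the second (limma adjusted p = 0.0491). In the first and second series the log2 fold changes of *Cd74* were 0.49 and 2.46, and those of *Ciita* -0.50 and 2.15. Leaving out 1 library at a time ended the call of *Cd74* without mutant Ly6Clo 4 or wt Ly6Chi 1, 2, 3 or 4 (adjusted p up to 0.0881). The call of *H2-Ob* was lost without mutant Ly6Clo 1, 2, 3 or 4 or wt Ly6Chi 1, 2 or 4 (adjusted p up to 0.122).

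Of 8 dendritic cell markers tested (of 12 listed), 3 were called higher and none lower, and 5 were not called. The share called higher was 37.5%, against 8.15% of all genes. *Zbtb46*, a transcription factor of conventional dendritic cells, was at 28, 53, 460 and 165 in mutant Ly6Clo and at 4, 7, 27 and 6 in wt Ly6Chi cells (log2 fold change 3.47 ± 0.82, adjusted p = 0.0103). *Flt3*, a cytokine receptor of dendritic cells, was at 251, 135, 850 and 381 against 248, 243, 405 and 370 and was not called (0.07 ± 0.45). Mutant library 3 was the highest of the group for all of *H2-Eb1*, *H2-Aa*, *H2-Ab1*, *Zbtb46* and *Flt3*. The other two called were *Siglech*, a marker of plasmacytoid cells (3.58 ± 0.96), and *Dpp4* (0.64 ± 0.21). The summed values of the list were 982 to 3725 in mutant and 1014 to 1417 in wt Ly6Chi libraries. Without mutant Ly6Clo 3 or 4, *Siglech* was no longer called (adjusted p up to 0.0756). Leaving out 1 library at a time ended the call of *Dpp4* without mutant Ly6Clo 3 or 4 or wt Ly6Chi 1, 2, 3 or 4 (adjusted p up to 0.116). *Xcr1*, a defining marker of cross-presenting dendritic cells, was at 13 at most in mutant and at 1 at most in wt Ly6Chi libraries. The part of these cells in the MHC class II values was not tested.

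Among Fc receptors 4 of 6 tested genes were called higher and none lower. *Fcgr4*, the receptor by which Ly6Clo cells bind IgG immune complexes, was at 8009, 8731, 5784 and 6509 against 412, 710, 643 and 1121 (log2 fold change 3.40 ± 0.25, adjusted p = 6.9e-06). *Fcgr1*, the high-affinity receptor, was at 2263, 2515, 1782 and 1371 against 961, 1231, 1453 and 1164 (log2 fold change 0.70 ± 0.19, adjusted p = 0.0204) and was above wt Ly6Clo cells as well (1.16, adjusted p = 0.004), but its mutant and wt Ly6Chi libraries overlapped. *Fcgrt*, which recycles IgG, and *Fcer1g*, the shared signalling chain, rose as well (2.06 ± 0.15 and 0.75 ± 0.17). The inhibitory *Fcgr2b* and the activating *Fcgr3* were not called. The call of *Fcgr1* was lost without mutant Ly6Clo 1 or 2 or wt Ly6Chi 1 (adjusted p up to 0.0607).

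Among Notch pathway genes, 4 of 17 tested were called higher and 2 lower, or 35.3%, against 15.5% of all genes. A 95% interval within 0.6 of no change was found for 8 of the 17, and for 37.7% of all genes. Target genes were among those that rose. *Nrarp*, which feeds back on Notch signals, was at 37, 28, 52 and 80 against 4, 5, 4 and 7 (log2 fold change 2.99 ± 0.47, adjusted p = 1.0e-03) and the ligand *Jag1* at 64, 80, 58 and 62 against 6, 8, 21 and 17 (log2 fold change 2.40 ± 0.42, adjusted p = 0.00186). *Maml2*, a coactivator, was at 201, 156, 175 and 235 against 122, 109, 138 and 119 (log2 fold change 0.64 ± 0.17, adjusted p = 0.0225). Mutant and wt Ly6Chi libraries did not overlap in these 3 genes, and *Hes1*, *Nrarp* and *Maml2* were called lower than in wt Ly6Clo cells (-1.18, -1.60 and -1.0). *Notch1*, the other receptor tested, was at 1505, 1398, 953 and 849 against 2894, 2152, 2260 and 2043 (log2 fold change -1.02 ± 0.19, adjusted p = 0.00266), and *Dtx3* fell too (log2 fold change -1.42 ± 0.17). *Rbpj*, the DNA-binding partner of the receptors, was at 330 to 730 and 425 to 565 (log2 fold change -0.06 ± 0.24), and the secretase genes *Psen2*, *Ncstn*, *Aph1a* and *Psenen* were not called. Without mutant Ly6Clo 1 or 4 or wt Ly6Chi 1 or 2, *Maml2* was no longer called (adjusted p up to 0.0716).

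**Figure D4:**
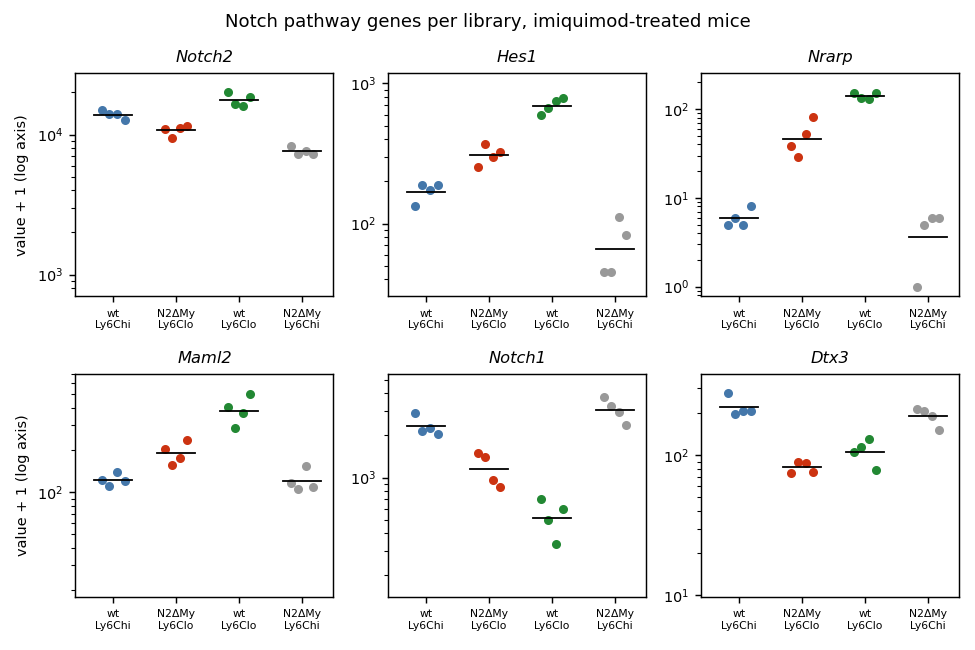
Values + 1 (log axis) of 6 Notch pathway genes are shown for each library of the 4 IMQ-treated groups, with geometric means as lines. For *Hes1*, *Nrarp* and *Maml2* the N2ΔMy Ly6Clo libraries lie between wt Ly6Chi and wt Ly6Clo libraries, and *Notch2* is lowest in N2ΔMy Ly6Chi libraries.

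Of 26 transcription factors tested, 9 were called higher and 2 lower. Over all genes 8.15% were called higher and 7.36% lower, so the share of factors called lower was near that of all genes. Beside *Nr4a1*, *Maf*, *Pparg*, *Nr1h3* and *Spic*, *Pou2f2* was at 9901, 9481, 16831 and 16763 against 4087, 3997, 7156 and 6987 (log2 fold change 1.25 ± 0.25, adjusted p = 0.00469), and *Klf4*, a factor of monocyte differentiation, *Klf6* and *Runx2* rose, with log2 fold changes of 0.77 ± 0.12, 0.71 ± 0.14 and 0.69 ± 0.10. *Irf8*, which guides monocyte and dendritic cell fate, was at 1682, 1420, 2110 and 1443 against 3788, 3569, 3140 and 2864 (log2 fold change -1.02 ± 0.14, adjusted p = 4.4e-04), and *Runx3* fell (-0.93 ± 0.15). *Spi1*, which encodes PU.1, and *Cebpa* were not called, with log2 fold changes of 0.40 ± 0.15 and -0.52 ± 0.25.

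Interferon-stimulated genes, which type I interferon downstream of TLR7 induces, were lower or not called. Of 24 tested, 11 were called lower and none higher, with a median log2 fold change of -0.88, and -1.15 in wt Ly6Clo over wt Ly6Chi cells. *Oasl2* was at 131, 223, 381 and 248 in mutant Ly6Clo and at 497, 1437, 1383 and 714 in wt Ly6Chi cells (log2 fold change -1.99 ± 0.37, adjusted p = 0.00295). *Isg15* was at 22, 9, 38 and 26 against 53, 144, 106 and 54 (log2 fold change -1.89 ± 0.47, adjusted p = 0.0138), and *Mx2* at 40, 31, 96 and 34 against 206, 303, 295 and 93 (log2 fold change -2.15 ± 0.43, adjusted p = 0.00427). *Oasl2* and *Isg15* did not overlap, and for *Mx2* mutant library 3 was just above the lowest wt library. *Ifit1* (-1.41, adjusted p = 0.0788) and *Ifit2* (-0.89, adjusted p = 0.193) were not called, but were with the replicate block (adjusted p = 9.4e-04 and 0.029). Leaving out 1 library at a time ended the call of *Isg15* without wt Ly6Chi 2 (adjusted p up to 0.0504).

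Of 21 receptors, adaptors and other genes of the Toll-like receptor chain, 1 was called higher and 2 lower, or 14.3%, which is near the 15.5% of all genes. With the replicate block 2 were called higher and 2 lower, when 2014 of all 11230 genes (17.9%) were called. *Tlr7*, the receptor of IMQ, was at 1736, 2029, 1949 and 2455 in mutant Ly6Clo and at 2320, 2978, 2997 and 3349 in wt Ly6Chi cells (log2 fold change -0.51 ± 0.14, adjusted p = 0.02) and was not called. *Irak3*, an inhibitor of the chain, was higher at 4404, 5022, 2607 and 3111 against 1980, 1506, 1191 and 1332 (log2 fold change 1.31 ± 0.21, adjusted p = 0.00124). *Tlr5*, the flagellin receptor, and *Tlr9*, the receptor of unmethylated DNA, were lower (-3.41 ± 0.42 and -0.79 ± 0.17). *Myd88*, the shared adaptor, was not called (-0.38 ± 0.17).

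Of 13 cytokine genes tested (of 24 listed), 3 were called higher and 2 lower. *Il1b* was at 1884, 2474, 1917 and 2298 in mutant Ly6Clo and at 187, 133, 207 and 568 in wt Ly6Chi cells (log2 fold change 3.19 ± 0.35, adjusted p = 9.2e-05), with no overlap, and the wt Ly6Clo libraries were at 2718 to 4495. *Tnf* was at 153, 180, 151 and 198 against 117, 83, 108 and 75 (log2 fold change 0.84 ± 0.20, adjusted p = 0.0104), and the chemokine *Ccl6* at 15835, 15015, 13396 and 12908 against 5519, 6973, 9034 and 10400 (log2 fold change 0.88 ± 0.18, adjusted p = 0.00472). *Il18* and *Tgfb1* fell (-0.96 ± 0.28 and -0.69 ± 0.13). The call of *Il18* was lost without mutant Ly6Clo 1, 2 or 3 or wt Ly6Chi 2, 3 or 4 (adjusted p up to 0.0826). *Il1a* was at 0 in all 8 libraries, and *Il6*, *Il10* and *Il12b* were at most at 4 in mutant and wt Ly6Chi libraries. Of 6 chemokine receptors tested, 2 were called higher, *Cx3cr1* among them, and 2 lower, *Ccr1* (77, 70, 55 and 46 against 491, 362, 267 and 667, log2 fold change -2.77 ± 0.28, adjusted p = 4.8e-05) and *Ccr2*.

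Adhesion genes moved in both directions. Of 22 tested, 10 were called higher and 3 lower. The integrin chains *Itgb2* and *Itgb1* rose with *Itgal* (1.22 ± 0.13 and 1.09 ± 0.16), while *Itga1*, the collagen-binding chain, fell from 1094, 766, 1175 and 788 in wt Ly6Chi to 53, 46, 91 and 66 in mutant Ly6Clo libraries (log2 fold change -3.90 ± 0.23, adjusted p = 1.5e-06). *Itga6*, a laminin-binding chain, fell as well (-1.14 ± 0.26), while *Selplg*, the selectin ligand, and *Cd44* were not called. *Vwf*, listed as an endothelial gene, was at 444, 362, 352 and 528 against 65, 97, 90 and 112 (log2 fold change 2.21 ± 0.20, adjusted p = 2.5e-05) and at 662 to 993 in wt Ly6Clo cells, while *Tek* was at 0 in all 8 libraries, *Cdh5* at 5 at most and *Kdr* at 19 at most.

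Survival genes of the BCL2 family rose in part, with 5 of 15 tested called higher and none lower. The share called higher was 33.3%, against 8.15% of all genes. *Bcl2* was at 1186, 1142, 1269 and 1465 in mutant Ly6Clo and at 164, 239, 266 and 333 in wt Ly6Chi cells (log2 fold change 2.37 ± 0.19, adjusted p = 1.2e-05), and at 2695 to 3247 in wt Ly6Clo cells. *Bcl2a1a*, *Bcl2a1b* and *Bcl2a1d* rose, with log2 fold changes of 3.70 ± 0.42, 4.30 ± 0.41 and 4.02 ± 0.24, but these copies are near-identical and their reads can be split. *Pmaip1*, a pro-apoptotic member, rose too (1.32 ± 0.15), while the pro-survival *Mcl1* was not called (0.22 ± 0.16).

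Cell cycle genes were lower where called, 7 of 21 tested and none higher. These 7 were 33.3% of the list, against 7.36% of all genes called lower. *Mki67*, a marker of cycling cells, was at 146, 209, 496 and 532 in mutant Ly6Clo and at 2396, 1680, 1258 and 1461 in wt Ly6Chi cells (log2 fold change -2.46 ± 0.38, adjusted p = 9.1e-04), and the mitotic genes *Ccnb2*, *Ube2c* and *Birc5* fell, with log2 fold changes of -2.96 ± 0.52, -2.36 ± 0.39 and -2.19 ± 0.42. The replication genes *Pcna* and *Mcm6* were not called (0.42 ± 0.16 and 0.46 ± 0.19), nor were the other *Mcm* genes tested. Neutrophil genes fell as well, 6 of 8 tested called lower and 1 higher. *S100a8* was at 34, 33, 93 and 84 against 561, 545, 930 and 3257 (log2 fold change -4.14 ± 0.55, adjusted p = 3.1e-04) and *Prtn3*, a serine protease of granulocyte and monocyte precursors, at 9, 12, 13 and 4 against 234, 150, 151 and 195 (log2 fold change -4.21 ± 0.37, adjusted p = 1.8e-05), while *Mmp9* was higher at 99, 131, 16 and 41 against 7, 0, 10 and 8 (log2 fold change 3.38 ± 0.86, adjusted p = 0.016). *Ly6g*, the defining marker of neutrophils, was at 0 in all 8 libraries. Without mutant Ly6Clo 1 or 2, *Mmp9* was no longer called (adjusted p up to 0.0544). The summed neutrophil values were 2215 to 3442 in mutant and 7231 to 13008 in wt Ly6Chi libraries, and their part in the lower values was not tested.

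Many genes lay near the wt Ly6Chi level in the mutant. For 4237 genes (37.7%) the 95% interval of the log2 fold change lay within 0.6 on both sides, and of these 113 were called lower and 64 higher in wt Ly6Clo than in wt Ly6Chi cells. The 10 of these 177 with the highest mean were *Akna*, *Anxa2*, *Arap1*, *Ctsb*, *Rasa3*, *Rassf4*, *Rrbp1*, *Sema4d*, *Unc93b1* and *Zfp106*. *Rassf4* was at 14829, 15455, 11659 and 11687 in mutant Ly6Clo and at 13624, 12920, 12869 and 11664 in wt Ly6Chi cells (95% interval -0.21 to 0.33), and at 8733, 8258, 7812 and 7855 in wt Ly6Clo cells. *Anxa2*, annexin A2, was at 8771, 10333, 7134 and 7245 against 9214, 11079, 8167 and 10650 (95% interval -0.55 to 0.09) and at 5554, 6325, 5530 and 4933 in wt Ly6Clo cells. The mutant and wt Ly6Chi libraries of *Rassf4* and *Anxa2* overlapped, while the wt Ly6Clo libraries lay below the wt Ly6Chi ones. *Rasa3* and *Zfp106*, called higher in wt Ly6Clo than in wt Ly6Chi cells (0.71 and 0.73), had log2 fold changes of 0.29 ± 0.09 and 0.34 ± 0.09 in the mutant and were not called there.

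Some listed genes were not called in the mutant and were low in wt Ly6Clo cells. They are named after their values were seen. *Siglec1*, a sialic acid receptor of macrophages, was at 112, 144, 163 and 114 in mutant Ly6Clo and at 118, 264, 259 and 107 in wt Ly6Chi cells (-0.38 ± 0.31, not called), and at 3, 29, 0 and 0 in wt Ly6Clo cells. *Gas7* was at 2676, 2306, 2364 and 1957 against 3792, 3090, 3380 and 3098 (-0.53 ± 0.11, not called) and at 50, 49, 145 and 42 in wt Ly6Clo cells. Mutant libraries of both genes were above every wt Ly6Clo library. All 4 *Gas7* libraries of the mutant were also below all 4 of wt Ly6Chi cells. *Ccl9*, a chemokine, was at 5965, 5354, 6855 and 5735 against 5387, 6559, 8006 and 9366 and at 1023, 1010, 1720 and 1899 in wt Ly6Clo cells.

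**Figure D5:**
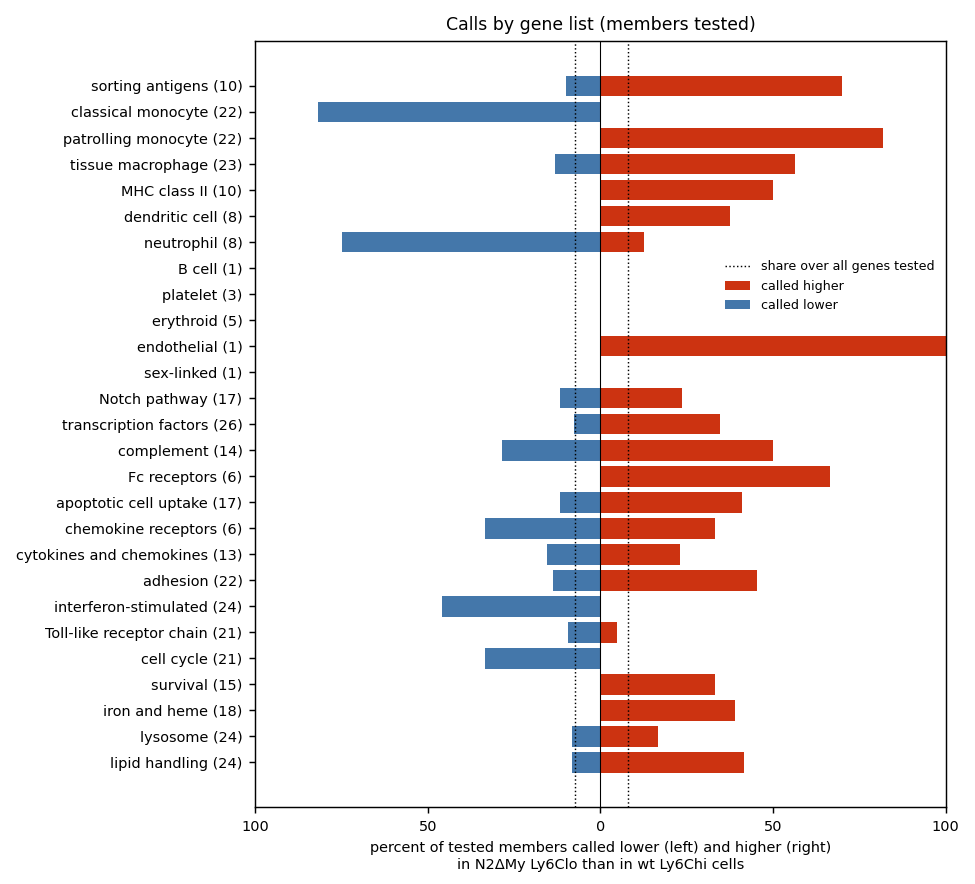
For each gene list with tested members (number in brackets), bars give the percent of them called lower (blue, left) and higher (red, right) in N2ΔMy Ly6Clo than in wt Ly6Chi cells, with dotted lines at the shares over all genes, 7.36% and 8.15%. Classical monocyte genes were called in 1 direction only, 18 of 22 lower, and patrolling genes in the other, 18 of 22 higher.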

How the data were processed

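RNA was sequenced from 24 libraries of sorted blood monocytes, 4 in each of 6 groups, made with the SMARTer Stranded Total RNA-Seq Pico kit. Per the submitters' processing notes, the authors used bcl2fastq, Trim Galore 0.4.4, STAR 2.5.3a, DESeq2 and build GRCm38.p6. The deposited score of each gene in each library is its read count divided by the library's DESeq2 size factor and rounded to a whole number, so it was not treated as a raw count. The table's columns of the authors' own comparison (base mean, log2 fold change, its SE, Wald statistic, p-values) were not used.

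Of 53715 genes listed, the 11230 that reached 50 in 1 or more of the 24 libraries were tested. Values were tested as log2(value + 1) with limma 3.58.1 (lmFit, eBayes with trend) in R 4.3.3 on the libraries of the groups compared, with Benjamini-Hochberg adjustment over all genes tested. Calls required adjusted p ≤ 0.05 together with an absolute log2 fold change ≥ 0.6. A single gene tested alone by exact permutation of 4 against 4 libraries cannot go below p = 0.0286, so no such p is given. Depth, estimated from the steps between low values, was 9524061 to 19763898 reads and limits low genes. In simulation this estimate came within 1% in 63 of 66 libraries and was off by up to 62.6% in the others.

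Libraries 1 and 2 of each group were taken as a first and libraries 3 and 4 as a second library series by their numbers. The sample titles number the libraries and name no series. Same-numbered libraries of both groups deviated together (r of 0.299 to 0.434 across genes), but only weakly within a series (r of 0.029 to 0.15). The numbers were taken to pair the libraries, which the labels do not state, and the fit with a replicate block is an alternative. In simulated data over 11230 genes, the fit recovered 76 of 100 genes changed 2-fold and 100 of 100 changed 4-fold. These shares hold for the spread set in the simulation, which was not compared with that of these libraries. They were counted on the changed genes only and are not rates for all genes tested. Whether the joint deviation of same-numbered libraries alters them was not tested.

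The groups and the 30 gene lists were chosen with earlier results of these data known. Genes named were the 12 largest rises and falls of called genes with a mean of at least 100, the 10 farthest above or below both wt subsets, for each list up to 4 called genes and its first 3 genes, the sorting antigens, *Notch2*, *Hes1*, *Lyz1* and *Lyz2*, and the 10 highest genes near the wt Ly6Chi level that differed in wt Ly6Clo cells. Some genes that this rule takes are not reported here. Genes beyond this rule were chosen after their values were seen. Alternatives were the replicate block, the library series, TMM scaling, other filters, pseudocounts and a floor, limma without the trend, all 24 libraries in 1 fit, a stricter threshold and leaving out each library.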

Additional observations from a re-analysis of the deposited data

Results flagged for a closer look

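In the 2 groups, 354 sets of 4 library values were screened for a single library far from the other 3 by Dixon's ratio at its 95% critical value, and 23 sets passed it. Chance alone passes about 1 in 20.

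In *N2ΔMy* Ly6Clo libraries, *Ly6c2* reached 382 in replicate 3 against 46 to 58 in the others, and *Mx2* 96 in the same replicate against 31 to 40. In replicate 2, *Gm24270* reached 249 against 31 to 56, *Fcnb* 4 and *Tfec* 1 against 0, and *Blvrb* was lowest at 664 against 777 to 786. In replicate 1, *Slamf9* was highest at 1637 against 1167 to 1226 and *Pcna* lowest at 397 against 533 to 542. In replicate 4, *Pparg* was highest at 1918 against 1597 to 1645.

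In wt Ly6Chi libraries, replicate 3 was highest for *H2-Eb1* (265 against 62 to 95), *Zbtb46* (27 against 4 to 7), *Axl* (409 against 214 to 241) and *Sox5* (12 against 0 to 2), and lowest for *Gsr* (7852 against 10726 to 11310). Replicate 4 was highest for *S100a8* (3257 against 545 to 930), *Mmp8* (3660 against 1936 to 2204), *Il1b* (568 against 133 to 207), *Hmox1* (1239 against 792 to 827), *S1pr1* (28 against 10 to 13) and *Cd5l* (4 against 0), and lowest for *Tlr9* (593 against 832 to 879). Replicate 1 was highest for *Dtx3* (275 against 196 to 207) and lowest for *Il18* (119 against 176 to 185).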

How the results depend on the processing

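Under TMM scaling, both pseudocounts, the floor and limma without the trend, the counts of calls stayed within 1.5 times of those reported. With the replicate block, 15 genes were below both wt subsets, and 163 and 144 lay between them (higher and lower than wt Ly6Chi). With the library series as a covariate these were 15, 153 and 125. The first series alone gave 20 below both, and the second alone 48 above and 3 below both, with 29 and 24 between. Without a filter on low values they were 43 and 0, with 34 and 20 between. With all 24 libraries in the fit 13 were below both and 150 lay between and lower than wt Ly6Chi. With adjusted p ≤ 0.01 and an absolute log2 fold change ≥ 1 in limma, 757 genes were called, 426 higher and 331 lower, with 41 above both, 0 below both, and 20 and 17 between. Leaving out 1 library gave 1515 to 1774 calls, 77 to 100 above both, 4 to 12 below both, and 67 to 117 and 54 to 95 between. The 12 genes below both came without mutant Ly6Clo replicate 4, the 10 without wt Ly6Clo replicate 3, and the 54 between without wt Ly6Clo replicate 1. At an unadjusted p under 0.05 in limma in both comparisons, 70 genes were below both without the filter and 8 at the larger fold change, and no other tool was run. The causes were not tested.

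Of 3535 values of 177 named genes under alternatives, 3347 kept direction and side of the threshold, 143 lost a call, 31 gained one and 14 changed sign. The replicate block added the calls of *Ear2*, *Ifit1*, *Ifit2* and *Trf* and changed no other. Without a filter on low values more genes were tested and 30 calls were lost, those of *H2-Eb1*, *H2-Aa* and *H2-Ab1* included. In a single series of 2 libraries a group, 10 were lost in the first and 22 in the second. Sign changes concerned genes not called over both series. In the first series alone *Ciita* was at -0.50, *Flt3* at -0.41 and *H2-DMb1* at -0.70, and in the second *Rassf4* was at -0.07 and *Rbpj* at 0.24. Leaving out 1 library put *Flt3* between -0.39 and 0.49, *H2-DMb1* between -0.26 and 0.39, *Rassf4* between -0.01 and 0.12 and *Rbpj* between -0.27 and 0.11.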
